A study of Homo sapiens with 12 samples.

Results

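The 9 genes described here are MRPS12, MICALL1, ACTA2, NEFL, SNN, ABHD2, CUX1, EPHB1 and PTPRO, out of 10346 genes with a probe set of their own in the deposited values. They were chosen by their measured log2 differences in these arrays: NFKB1 siRNA changed each by over 1.5-fold in the same direction in cells with and without ETV6 siRNA. Those 2 differences are therefore a description of the choice and carry no test. In all arrays of the pairs compared, 8 of the 9 were lower with NFKB1 siRNA, and PTPRO was higher. Of all genes compared, 4.21% were lower and 1.87% higher in all arrays of both pairs. Among the 7760 genes compared, which passed a filter on low levels except for NFKB1, kept below it as a targeted gene, 11 met the same criterion: the 9, NFKB1 itself and the mitochondrial gene ND4. That is 0.142% of the genes compared (0.116% lower in both and 0.0258% higher in both). Here and below, shares of all genes are over the 7760 genes compared, which come from the deposited values. Whether the arrays hold further probe sets was not determined here.

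The cells were U251, an established human glioblastoma line, transfected with pools of small interfering RNA (siRNA, ON-TARGETplus SMARTpool) by DharmaFECT 2. There were 4 groups of 3 samples, 12 arrays in all: NFKB1 siRNA, NFKB1 and ETV6 siRNA together (double siRNA), ETV6 siRNA alone, and a control siRNA without a known human target. Each siRNA was used at 50 nM, so double siRNA cells received more siRNA in sum than cells given 1 pool; whether any control matched that sum is not stated in the labels. Total RNA was read on Affymetrix expression arrays, whose probe sets each give a level on the log2 scale, where a step of 1 is a 2-fold change. Each target was knocked down with 1 pool, so effects of the target and of its pool on other transcripts cannot be told apart. Nothing in the labels says that the 3 samples of a group were separate cultures, so p-values measure only the spread between these samples, which may be technical.

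NFKB1 encodes p105, the precursor of the p50 subunit of NF-kB. In unstimulated cells NF-kB dimers are held in the cytoplasm by inhibitors of the IkB family; once released they enter the nucleus and bind kB sites in promoters and enhancers, where p50 paired with RELA activates transcription and p50 homodimers can repress it. NF-kB signalling is often active in glioblastoma and is linked there to the mesenchymal state. ETV6 is a transcriptional repressor of the ETS family, which binds DNA sites with a GGAA core.

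NFKB1, on its single probe set, had log2 levels of 6.95, 6.75 and 6.05 in NFKB1 siRNA arrays, against 7.22, 7.24 and 7.49 in control arrays, and 6.50, 6.58 and 6.57 in double siRNA arrays, against 7.85, 7.74 and 7.85 in ETV6 siRNA arrays. This left 60.3% of the level in control arrays and 41.7% of that in ETV6 siRNA arrays, and the groups did not overlap in either pair. ETV6, on its brighter probe set, had log2 levels of 7.44, 7.36 and 7.29 in double siRNA arrays and 6.80, 6.78 and 6.60 in ETV6 siRNA arrays, against 8.73, 8.72 and 8.64 in NFKB1 siRNA arrays and 9.02, 9.02 and 8.58 in control arrays. This left 39.7% of the NFKB1 siRNA level with double siRNA and 22.6% of the control level with ETV6 siRNA. ETV6 was 1.55-fold higher with double than with ETV6 siRNA. On its dimmer probe set, with 6 values below the 5th percentile of their arrays, it was 1.62-fold higher. Double and ETV6 siRNA arrays thus differed in ETV6 level as well as in NFKB1 siRNA, and the part of this in the results was not tested. The array medians were 8.08 to 8.20 with NFKB1 siRNA, 8.34 to 8.38 with double siRNA, 8.18 to 8.27 with ETV6 siRNA and 8.22 to 8.27 with control siRNA. Poly-A spike-in probe sets averaged 7.97 to 8.05 on the double siRNA arrays and 8.37 to 9.35 on the other 9 arrays; the part of this in the results was not tested. All 8 glioma or astrocyte markers with a probe set, GFAP and VIM among them, passed the filter on low levels (a mean of at least log2 7.54, the 25th percentile of genes). Of the epithelial and immune markers, 0 of 5 and 0 of 6 had a probe set in the deposited values, so their levels were not read. The only endothelial marker with a probe set (KDR) lay below the filter, and 1 of 2 neuronal ones (TUBB3) passed it.

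Of the 9 genes, 7 have promoter sequences in the RefSeq table used (assembly GRCh38.p14, 12 promoters, each 250 bases before to 50 after a transcription start); NEFL and SNN are named without one. The windows were searched on both strands for the 10-base NF-kB consensus, for the strict form of the 10-base CArG box (CC, then 6 bases that are A or T, then GG) bound by serum response factor, which drives contractile genes such as ACTA2, and for the ETS motif CCGGAAGT. The NF-kB consensus was found in 3 of the 12 promoters, those of CUX1, EPHB1 and PTPRO, the strict CArG box in 0 and the ETS motif in 0. Over all 35116 promoters of the table the shares were 11.3%, 1.29% and 4.14%. With 1 base off the strict form allowed, a search added after the values were seen, the CArG box was found in 4 of the 12 promoters and in 18.9% of all promoters; the second ACTA2 promoter held 2 such near matches. A match is a run of letters and not a bound site, and no match says only that these letters are not in the window. The 3 promoters with a match are printed with the matching bases in capitals, 5′ to 3′ on the gene's strand. The match begins 145 bases before the start of the second CUX1 promoter (chr7:101817376-101817675, plus strand) and 25 bases before that of EPHB1 (chr3:134795010-134795309, plus strand), and both read as matches on either strand. The PTPRO match (first promoter, chr12:15322258-15322557, plus strand) lies after the start and is read on the minus strand. The promoters of MRPS12 (first promoter, chr19:38930694-38930993, plus strand) and ACTA2 (second promoter, chr10:88952724-88953023, minus strand), genes with some of the largest differences below, are printed beside them and hold no match to any of the 3 motifs as searched, the 2 near matches to the CArG box in ACTA2 apart.
CUX1: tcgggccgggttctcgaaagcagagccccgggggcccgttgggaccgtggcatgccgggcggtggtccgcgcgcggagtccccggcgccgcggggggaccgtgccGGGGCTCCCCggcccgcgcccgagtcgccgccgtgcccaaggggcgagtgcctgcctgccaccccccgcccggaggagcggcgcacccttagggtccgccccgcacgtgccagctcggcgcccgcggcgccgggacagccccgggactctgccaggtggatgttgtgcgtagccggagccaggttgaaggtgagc
EPHB1: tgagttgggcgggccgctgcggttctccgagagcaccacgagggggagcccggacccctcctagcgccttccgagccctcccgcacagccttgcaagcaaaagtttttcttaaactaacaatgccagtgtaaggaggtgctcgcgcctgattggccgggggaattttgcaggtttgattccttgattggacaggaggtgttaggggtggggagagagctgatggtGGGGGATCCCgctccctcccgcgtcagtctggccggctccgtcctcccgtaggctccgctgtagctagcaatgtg
PTPRO: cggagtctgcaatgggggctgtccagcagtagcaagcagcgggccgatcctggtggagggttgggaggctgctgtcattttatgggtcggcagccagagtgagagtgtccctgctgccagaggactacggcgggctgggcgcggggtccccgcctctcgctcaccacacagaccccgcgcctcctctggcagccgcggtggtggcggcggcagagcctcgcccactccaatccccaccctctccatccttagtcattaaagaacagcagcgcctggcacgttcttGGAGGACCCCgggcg
MRPS12: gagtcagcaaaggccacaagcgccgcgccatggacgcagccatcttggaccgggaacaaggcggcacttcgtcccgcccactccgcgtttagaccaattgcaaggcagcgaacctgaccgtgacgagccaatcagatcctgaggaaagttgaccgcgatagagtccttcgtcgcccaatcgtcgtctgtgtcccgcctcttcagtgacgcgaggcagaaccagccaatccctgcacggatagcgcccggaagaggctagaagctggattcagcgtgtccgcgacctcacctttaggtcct
ACTA2: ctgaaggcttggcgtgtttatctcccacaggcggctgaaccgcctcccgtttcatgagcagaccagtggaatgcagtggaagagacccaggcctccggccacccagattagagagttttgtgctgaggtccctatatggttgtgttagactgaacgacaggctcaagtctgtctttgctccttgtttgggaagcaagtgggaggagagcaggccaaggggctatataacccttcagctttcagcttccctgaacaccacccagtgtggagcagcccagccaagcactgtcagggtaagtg

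Among structural genes, ACTA2 and NEFL were lower with NFKB1 siRNA on both backgrounds. ACTA2, which encodes smooth muscle alpha-actin, a contractile actin also made by myofibroblasts, had log2 levels of 8.40, 8.44 and 8.67 in NFKB1 siRNA arrays, against 9.50, 9.49 and 9.45 in control arrays. Its levels were 8.23, 8.45 and 8.22 in double siRNA arrays, against 9.87, 9.90 and 9.82 in ETV6 siRNA arrays. No array with NFKB1 siRNA, alone or in the double, reached the level of any array without it. ACTA2 was 1.97-fold lower with NFKB1 siRNA than with control siRNA (log2 difference -0.98, SE 0.08) and 2.96-fold lower with double siRNA than with ETV6 siRNA (-1.56, SE 0.08). In bulk RNA of this kind, fewer cells with a transcript and less of it per cell cannot be told apart, here and for every gene below. ACTA2 has a single probe set.

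NEFL encodes the light chain of neurofilaments, the intermediate filaments of axons. It read 10.03, 9.98 and 9.82 in NFKB1 siRNA arrays, against 10.75, 10.81 and 10.52 in control arrays, and 9.96, 10.21 and 10.15 in double siRNA arrays, against 11.21, 11.23 and 11.15 in ETV6 siRNA arrays. Its level was 1.68-fold lower with NFKB1 than with control siRNA (-0.75, SE 0.09) and 2.13-fold lower with double than with ETV6 siRNA (-1.09, SE 0.09). Its other 2 probe sets were also lower in the mean, by -0.61 and -0.78 in the first pair and by -0.39 and -0.30 in the second. On the probe set at -0.30 the double and ETV6 siRNA arrays overlapped.

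MRPS12, a protein of the small subunit of the mitochondrial ribosome, showed the largest differences of the 9. Its log2 levels were 10.29, 10.38 and 10.12 in NFKB1 siRNA arrays, against 11.50, 11.65 and 11.51 in control arrays. In double siRNA arrays they were 9.83, 9.86 and 9.81, against 11.72, 11.61 and 11.65 in ETV6 siRNA arrays. The double siRNA arrays were the lowest of all 12 and the replicates of that group differed by little. NFKB1 siRNA left 40.9% of the control level (2.45-fold lower, log2 difference -1.29, SE 0.07), and double siRNA left 28.1% of the ETV6 siRNA level (3.55-fold lower, -1.83, SE 0.07). The second, dimmer probe set gave -0.78 and -1.54.

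MICALL1, a scaffold of tubular recycling endosomes that binds Rab proteins and EHD proteins, had log2 levels of 9.70, 9.55 and 9.19 in NFKB1 siRNA arrays, against 10.66, 10.57 and 10.38 in control arrays. It read 8.93 to 9.05 in double siRNA arrays, against 10.79, 10.61 and 10.63 in ETV6 siRNA arrays. As with MRPS12, no array of a knock-down came near the group it was set against, and the double siRNA arrays were the lowest. MICALL1 was 2.08-fold lower with NFKB1 than with control siRNA (-1.06, SE 0.12) and 3.21-fold lower with double than with ETV6 siRNA (-1.68, SE 0.12), with -0.88 and -1.52 on the second probe set.

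SNN and ABHD2 encode small or lipid-associated membrane proteins. SNN (stannin, a small mitochondrial and vesicular membrane protein linked to organotin toxicity) read 8.31, 8.33 and 8.22 in NFKB1 siRNA arrays, against 9.03, 9.03 and 8.99 in control arrays, and 8.38, 8.42 and 8.32 in double siRNA arrays, against 9.38, 9.28 and 9.46 in ETV6 siRNA arrays. SNN was 1.66-fold lower with NFKB1 than with control siRNA (-0.73, SE 0.05), and double siRNA left 50.1% of the ETV6 siRNA level (SE 0.05 on the log2 scale). Its second probe set gave -0.51 and -0.89, with 2 of its 12 values below the 5th percentile of their arrays.

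ABHD2, an alpha/beta hydrolase that cleaves monoacylglycerols, had log2 levels of 9.80, 9.73 and 9.77 in NFKB1 siRNA arrays, against 10.52, 10.58 and 10.37 in control arrays. It read 9.81, 9.83 and 9.78 in double siRNA arrays, against 10.49, 10.48 and 10.47 in ETV6 siRNA arrays. NFKB1 and double siRNA arrays thus read alike, as did control and ETV6 siRNA arrays. ABHD2 was 1.65-fold lower with NFKB1 than with control siRNA (-0.72, SE 0.06) and 1.601-fold lower with double than with ETV6 siRNA (-0.68, SE 0.06). ABHD2 has 4 other probe sets, of which 3 were lower in both pairs (-0.89, -0.70 and -0.21 in the first, -0.67, -0.48 and -0.44 in the second) and 1 was not in the first (0.10, with NFKB1 and control siRNA arrays overlapping, and -0.36 in the second).

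CUX1, a homeodomain transcription factor with CUT repeats, read 9.28, 9.22 and 8.97 in NFKB1 siRNA arrays, against 10.03, 10.11 and 9.96 in control arrays, and 9.21, 9.25 and 9.28 in double siRNA arrays, against 9.99, 9.90 and 9.91 in ETV6 siRNA arrays. It was 1.84-fold lower with NFKB1 than with control siRNA (-0.88, SE 0.07) and 1.61-fold lower with double than with ETV6 siRNA (-0.68, SE 0.07). Of its other 3 probe sets, 2 were lower in both pairs (-1.09 and -1.19, then -0.91 and -0.64). The fourth read 7.89, 7.70 and 7.98 in NFKB1 siRNA arrays, which overlapped 7.93, 7.66 and 7.66 in control arrays (0.10), and it was lower only with double than with ETV6 siRNA (-0.44). Which CUX1 transcripts each probe set reads was not determined here.

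EPHB1 and PTPRO are a receptor tyrosine kinase for ephrin-B ligands and a receptor-type tyrosine phosphatase; in chick, Ptpro removes phosphate from Eph receptors. EPHB1 read 7.55, 7.57 and 7.22 in NFKB1 siRNA arrays, against 8.26, 8.37 and 7.86 in control arrays, and 7.14, 7.25 and 6.99 in double siRNA arrays, against 8.20 to 8.43 in ETV6 siRNA arrays. Control replicate 3, at 7.86, lay nearest the NFKB1 siRNA arrays, of which the highest was 7.57. EPHB1 was 1.64-fold lower with NFKB1 than with control siRNA (-0.71, SE 0.14) and 2.23-fold lower with double than with ETV6 siRNA (-1.16, SE 0.14). Its second probe set, with 3 values below the 5th percentile of their arrays, gave -0.25, with overlapping groups, and -0.70.

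PTPRO, the only gene of the 9 that was higher, read 8.08, 7.99 and 7.64 in NFKB1 siRNA arrays, against 7.18, 7.04 and 7.19 in control arrays. It read 8.44, 7.92 and 8.72 in double siRNA arrays, against 7.63, 7.38 and 7.35 in ETV6 siRNA arrays. The double siRNA arrays of PTPRO were the most spread of any group of the 9 genes (SD 0.41). Its level was 1.70-fold higher with NFKB1 than with control siRNA (0.77, SE 0.17) and 1.88-fold higher with double than with ETV6 siRNA (0.91, SE 0.17), on its single probe set.

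**Figure D1:**
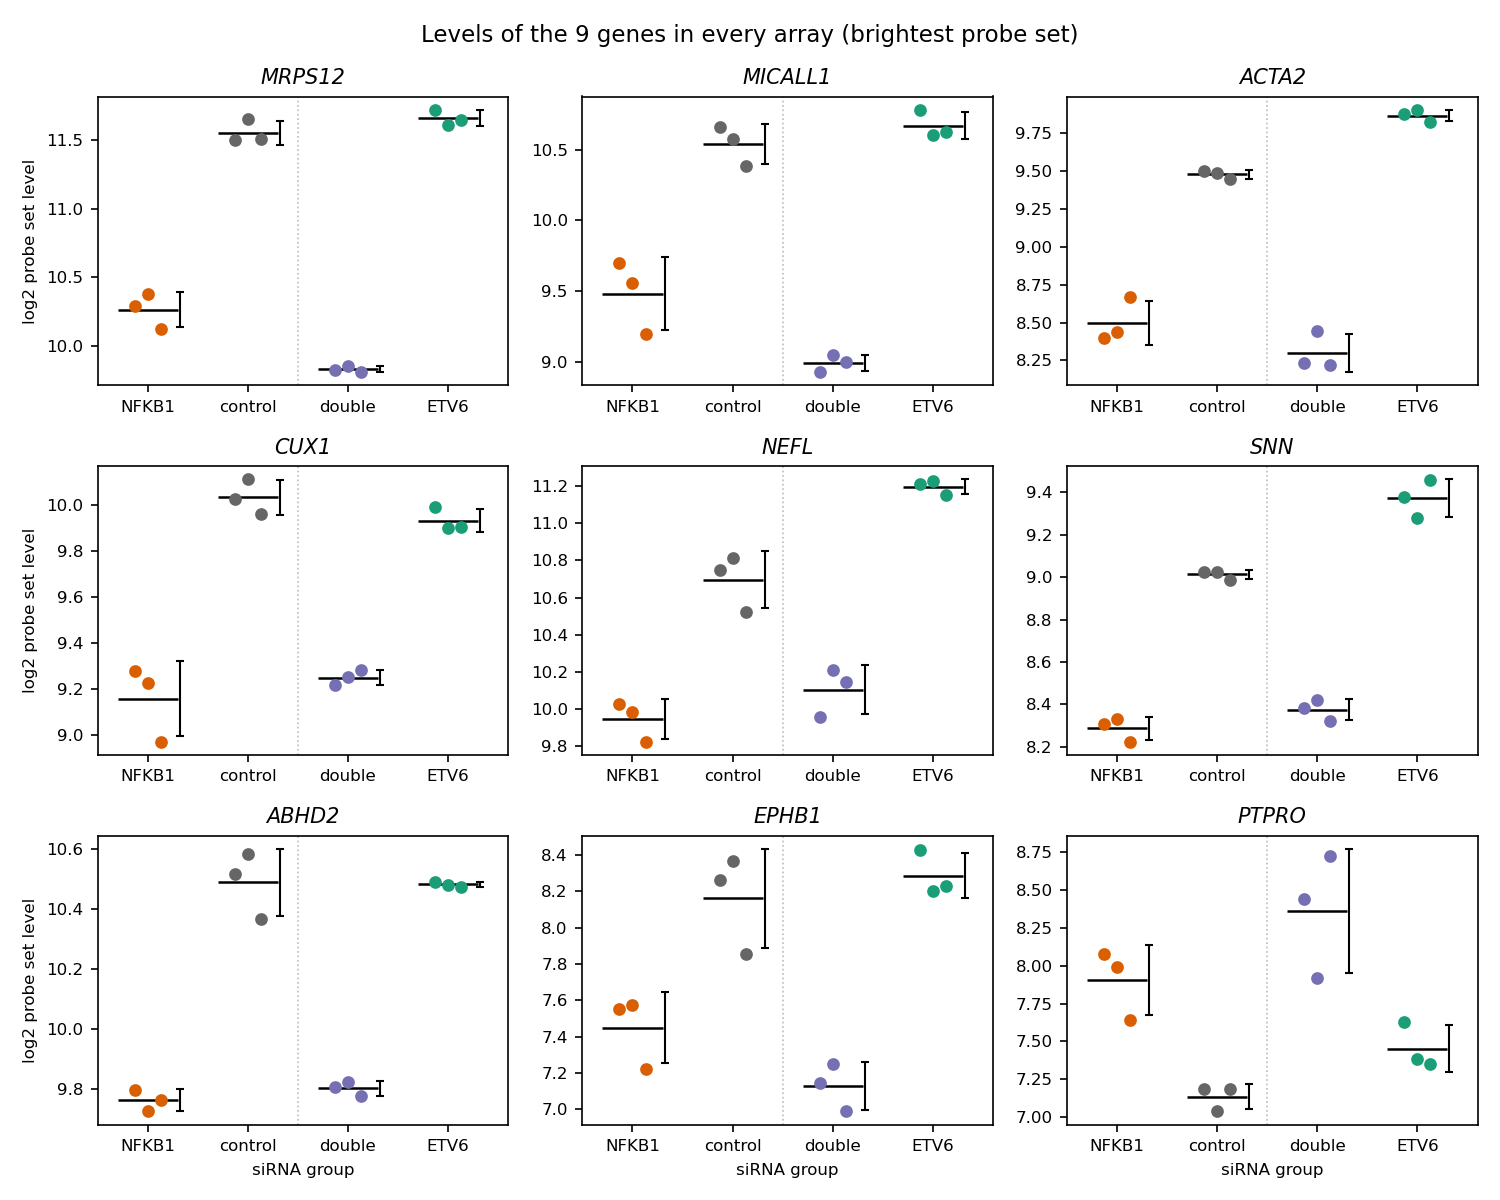
Log2 level of each of the 9 genes (brightest probe set, y axis) on each of the 12 arrays, by siRNA group; points are single arrays, horizontal lines group means and error bars SD (n = 3). For 8 genes the NFKB1 and double siRNA arrays lie below the control and ETV6 siRNA arrays, and for PTPRO above them.

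The 9 genes together comprised 22 probe sets, 13 of them beyond the brightest of each gene. They read the same arrays in the same comparisons, so they too are a description. In NFKB1 against control siRNA 11 of these 13 had the same sign as the brightest probe set, in double against ETV6 siRNA 13 had, and 5 of the 13 passed 1.5-fold in both pairs (1 each for MRPS12, MICALL1 and ABHD2 and 2 for CUX1). The probe sets without the sign were 1 each of CUX1 and ABHD2. Averaging the probe sets of a gene left 7 of the 9 genes past 1.5-fold in both pairs; ABHD2 (-0.49 and -0.52) and EPHB1 (-0.48 and -0.93) no longer passed.

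**Figure D2:**
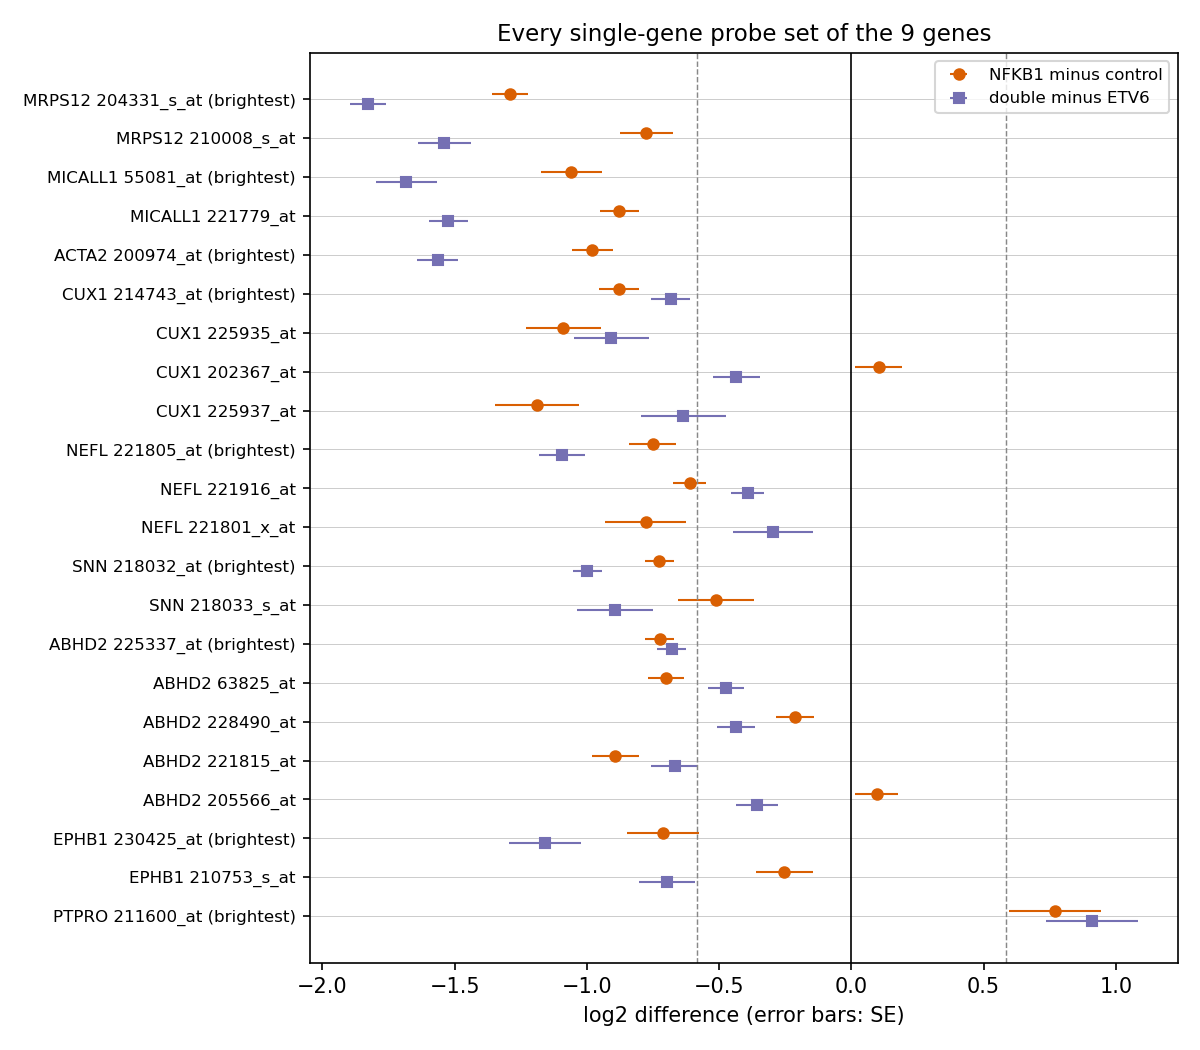
Log2 difference of every probe set of the 9 genes (rows), NFKB1 minus control siRNA and double minus ETV6 siRNA, with standard errors as bars and the brightest probe set of each gene marked. Of the 13 other probe sets, 11 lie on the side of the brightest one in the first comparison and 13 in the second.

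The sizes of the 9 genes' differences were set beside those of all 7760 genes as a description. The median over the 9 was -0.75 in NFKB1 minus control siRNA, where the median of all genes was 0.01, and -1.09 in double minus ETV6 siRNA, where it was -0.15. In both pairs of groups, 8 of the 9 lay wholly below and PTPRO wholly above; among all genes 27.9% had the NFKB1 siRNA arrays all below the control arrays and 19.9% all above, 53.4% had the double siRNA arrays all below the ETV6 siRNA arrays and 36.6% all above, and 4.21% (below) and 1.87% (above) had both. The rule used these contrasts, so nothing is read from the counts. ABHD2 was the member nearest the threshold (its smaller difference was 1.601-fold), and ND4 (1.51-fold) lay just inside it. GRWD1 (1.499-fold, from -0.58 and -1.29) and SH3BP5 (1.49-fold, from -0.63 and -0.57) lay just outside.

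**Figure D3:**
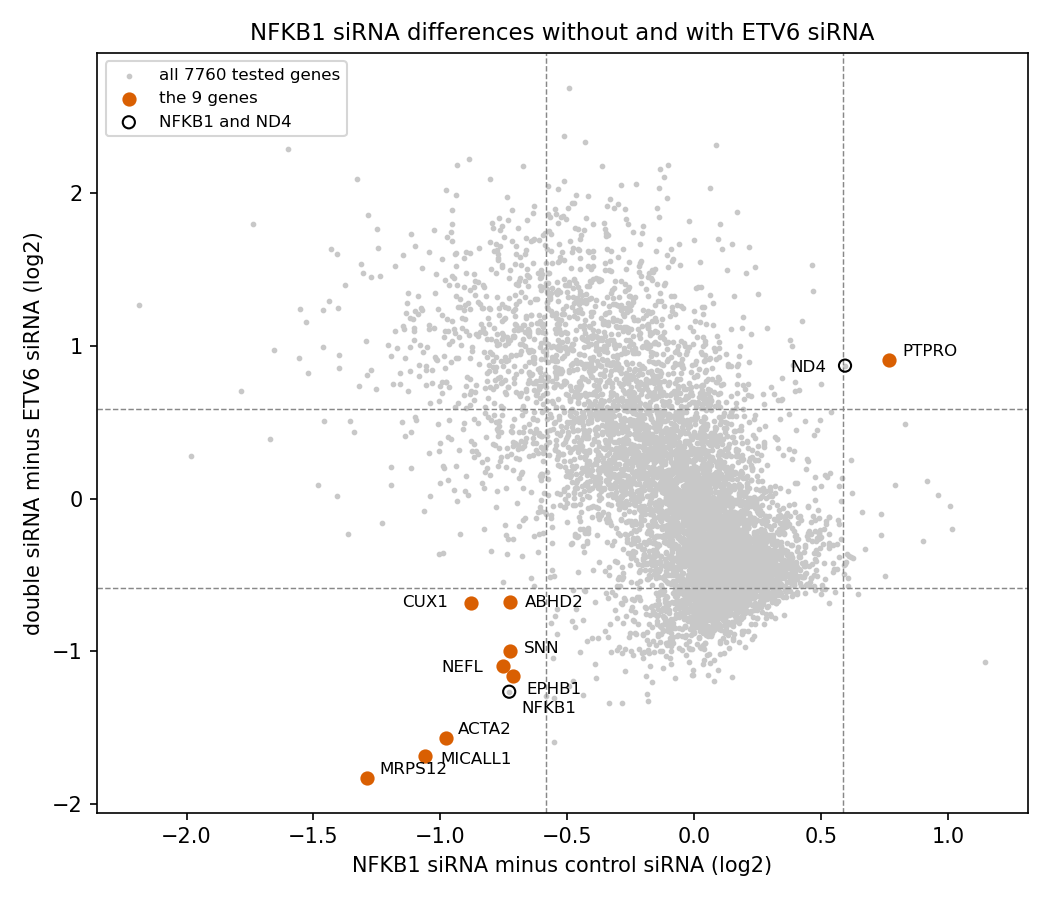
Log2 differences of NFKB1 minus control siRNA (x axis) against double minus ETV6 siRNA (y axis) for the 7760 genes compared, with the 9 genes, NFKB1 and ND4 marked and the 1.5-fold lines drawn. The 8 lower genes lie in the lower left corner and PTPRO in the upper right.

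The NFKB1 siRNA difference was more negative in cells with ETV6 siRNA than without it for 6 of the 9 genes and less negative or more positive for CUX1, ABHD2 and PTPRO. The difference of the 2 differences ran between -0.62 (MICALL1) and 0.19 (CUX1), with a median of -0.34 over the 9 and -0.18 over all genes, and it was -0.59 for ACTA2, -0.54 for MRPS12, -0.45 for EPHB1, -0.34 for NEFL and -0.27 for SNN. These values come from the contrasts that chose the genes and carry no test.

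The effect of ETV6 siRNA, averaged over cells with and without NFKB1 siRNA, did not enter the choice and was tested with limma. NEFL was higher with ETV6 siRNA (log2 0.33, SE 0.06, adjusted p = 0.000477), as was SNN (0.22, SE 0.04, adjusted p = 0.000278) and PTPRO (0.39, SE 0.12, adjusted p = 0.0128), and MRPS12 was lower (-0.16, SE 0.05, adjusted p = 0.00823; limma, Benjamini-Hochberg over 7760 genes). The other 5 did not pass: MICALL1 (-0.18, SE 0.08, adjusted p = 0.0594), ACTA2 (0.09, SE 0.05, adjusted p = 0.134), EPHB1 (-0.10, SE 0.10, adjusted p = 0.354), ABHD2 (0.02, SE 0.04, adjusted p = 0.704) and CUX1 (-0.01, SE 0.05, adjusted p = 0.931). In all 4 of 9 passed (44.4%), 3 higher and 1 lower, where 79.7% of all genes did, 33.7% higher and 45.9% lower. With array weights 8 of the 9 passed (88.9%), beside 86.9% of all genes; the shares were not tested against each other. PTPRO averaged 7.14 with control and 7.45 with ETV6 siRNA, below the filter, and passed it through the NFKB1 and double siRNA groups, where the choice of genes made it high; without a filter it was at 0.39 (adjusted p = 0.0154). EPHB1 averaged 7.45 with NFKB1 and 7.13 with double siRNA, also below the filter. It passed through the control and ETV6 siRNA groups, where the choice of genes made it the higher. Without a filter EPHB1 was at -0.10 (limma adjusted p = 0.367). The median effect was 0.02 over the 9 and -0.07 over all genes. For 6 of the 9 the average joins opposite signs. For MRPS12, MICALL1, ACTA2 and EPHB1, ETV6 siRNA arrays averaged above control arrays (0.11, 0.13, 0.39 and 0.12 in that order), and double siRNA arrays below NFKB1 siRNA arrays (-0.43, -0.49, -0.20 and -0.32). For CUX1 (-0.10 and 0.09) and ABHD2 (-0.01 and 0.04) the signs ran the other way, with smaller values. NEFL, SNN and PTPRO were higher in the mean in both pairs, by 0.16, 0.09 and 0.46 with double than with NFKB1 siRNA.

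Probe sets bore on these calls. NEFL was higher on its other 2 probe sets as well (0.55 and 0.46) and MRPS12 lower on its second (-0.25), whereas the second SNN probe set was at -0.14, and with the mean of the probe sets SNN was at 0.04 (adjusted p = 0.532) and no longer passed. MICALL1 passed in 10 of 22 alternative settings, among them the same median for every array (-0.27, adjusted p = 0.00308) and leaving out control replicate 3 (-0.22, adjusted p = 0.0217), ETV6 replicate 1 (-0.21, adjusted p = 0.0469) or NFKB1 replicate 3 (-0.25, adjusted p = 0.00283). ACTA2 passed without NFKB1 replicate 3 (0.14, adjusted p = 0.0193) and EPHB1 without control replicate 3 (-0.18, adjusted p = 0.0467). MRPS12, NEFL and PTPRO passed in every setting run that kept them (PTPRO was not in the fit with the stricter filter).

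By pair, ETV6 siRNA arrays lay wholly above control arrays for 4 genes, ACTA2 (0.39), NEFL (0.50), SNN (0.36) and PTPRO (0.32), and overlapped them for the other 5, whose differences ran from -0.10 to 0.13. Of all genes 11.8% had the ETV6 siRNA arrays all above the control arrays. Double siRNA arrays lay wholly below NFKB1 siRNA arrays for MRPS12 (-0.43) and MICALL1 (-0.49) and overlapped them for the other 7; of all genes 52.4% lay wholly below. These 2 pairs share arrays with the pairs that chose the genes and are given as values.

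**Figure D4:**
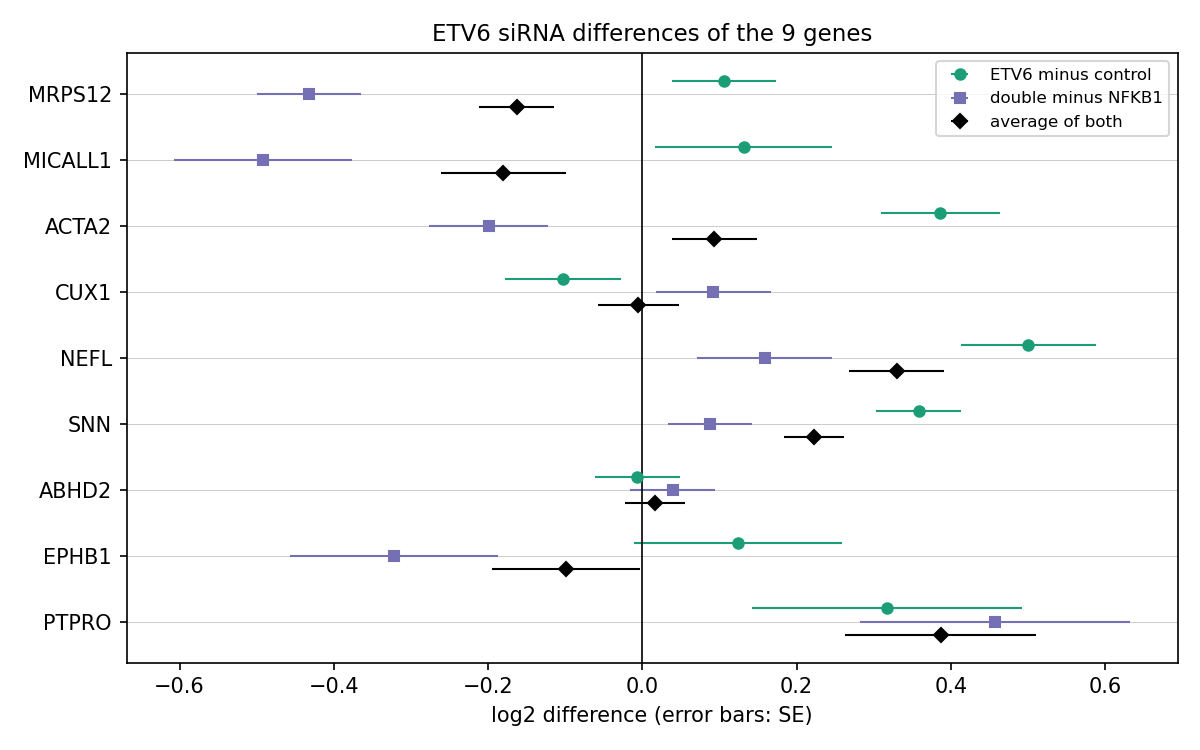
Log2 differences of ETV6 minus control siRNA, of double minus NFKB1 siRNA and their average for the 9 genes, with standard errors as bars. The averages of NEFL, SNN and PTPRO lie above 0, and that of MRPS12 below it, with its 2 parts on either side of 0.

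Across the 12 arrays the 8 lower genes ran closely together, with Pearson r between 0.89 and 0.99 over their 28 pairs (median 0.94), and PTPRO ran opposite to them (r -0.85 to -0.64, median -0.82). The arrays share 4 group means and overall differences between arrays, so r mostly describes the groups. The 9 genes were chosen for group differences in these same arrays. High r among the 8, and negative r with PTPRO, therefore largely follow from the choice and are no separate result. Among genes outside the 9, the closest to their common pattern, with each gene turned to be positive with NFKB1 siRNA, were NRN1 (r = 0.982), AK4 (0.974), PPP1R3C (0.964), STRADB (0.960) and SF3B6 (0.956). The most opposite, which ran with the 8 lower genes, were HEG1 (-0.988), ATP2A2 (-0.981), CCN2 (-0.977), JAG1 (-0.969) and SLC15A4 (-0.968). CCN2, a matricellular growth factor, was at -0.43 in NFKB1 minus control siRNA and -0.60 in double minus ETV6 siRNA, and NRN1, a membrane-anchored neurite growth factor, at 0.49 and 0.52.

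CCN2 was also the closest single gene to EPHB1 (r = 0.992 over 12 arrays), MICALL1 (0.987) and MRPS12 (0.975). For ABHD2 the closest was the Notch ligand gene JAG1 (0.980), for ACTA2 CGNL1 (0.981), for CUX1 SH3BP5 (0.978), for NEFL HOXB3 (0.976), for SNN STARD7 (0.972) and for PTPRO CCNL2 (0.981). The genes ranked next were AJUBA (0.978) for EPHB1, NF2 (0.978) for MICALL1, HEG1 for MRPS12 (0.974) and ABHD2 (0.976), ATP2A2 (0.978) for ACTA2, TANC2 (0.969) for CUX1, SIK2 (0.976) for NEFL, SEC14L1 (0.971) for SNN and NUDT6 (0.970) for PTPRO. None of this speaks of shared function or control.

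Relatives of the 9 genes were counted in 8 lists, each for a gene family or pathway of 1 of the 9 genes other than SNN, with the same limma test over all genes. The percentages of all genes called were 15.5% higher and 25.1% lower in NFKB1 minus control siRNA and 34.9% higher and 51.2% lower in double minus ETV6 siRNA. The first split turned with the scaling: 38.1% of the called genes were higher as deposited, 62.2% with every array at the same median and 57.5% after quantile normalization.

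Of 19 actin and contractile genes tested beside ACTA2, 0 were higher and 7 lower with NFKB1 than with control siRNA (0 and 11 at an unadjusted p under 0.05, median -0.16), and 3 were higher and 14 lower with double than with ETV6 siRNA (median -0.24). CALD1, an actin-binding regulator of contraction, was lower in the first pair (-0.77, SE 0.08, limma adjusted p = 3.46e-05) and higher in the second (0.44, SE 0.08, adjusted p = 0.000294), whereas ACTA2 was lower in both. The 4 probe sets of CALD1 ran from -1.07 to -0.77 in the first pair and from 0.03 to 0.49 in the second. CNN2, a calponin, was at -0.17 (adjusted p = 0.0633) in the first pair and fell in the second (-1.10, SE 0.07, adjusted p = 9.42e-07). Of 10 intermediate filament genes beside NEFL, 0 were higher and 3 lower in the first pair (0 and 3 at an unadjusted p under 0.05, median -0.07) and 0 and 6 in the second (0 and 6, median -0.24). SYNC was at -1.06 (adjusted p = 7.15e-05) and -0.08 (adjusted p = 0.558), and the neural progenitor filament gene NES at -0.16 (adjusted p = 0.122) and -1.004 (adjusted p = 1.67e-06).

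Of 29 other genes of the mitochondrial small ribosomal subunit, 5 were higher and 2 lower with NFKB1 than with control siRNA (median 0.06), and 4 higher and 17 lower with double than with ETV6 siRNA (median -0.23). MRPS14 was at 0.27 (adjusted p = 0.00112) and -0.26 (adjusted p = 0.000276) on the brighter of 2 probe sets that differ in sign (the other at -0.57 and 0.82), and MRPS34 at 0.18 (adjusted p = 0.0103) and -0.49 (adjusted p = 4.05e-06). Of 25 MICAL family and endosomal recycling genes beside MICALL1, 6 were higher and 8 lower in the first pair (median 0.03) and 7 and 13 in the second (median -0.16). Of them 11 were called in opposite directions in the 2 pairs and 1 in the same. Opposite and same calls numbered 2 and 4 for the actin list and 4 and 1 for the mitochondrial ribosomal list. They numbered 0 and 1 for intermediate filament, 2 and 0 for ABHD, 1 and 2 for Eph, and 0 and 0 for phosphatase and for CUT genes. The share over all genes was not determined, so nothing is read from these counts. ARF6, a small GTPase of endosomal recycling, was at -0.71 (adjusted p = 1.15e-05) and 0.37 (adjusted p = 0.000152), and EHD2 at 0.03 (adjusted p = 0.764) and -0.86 (adjusted p = 3.68e-06). The 4 probe sets of ARF6 ran from -0.71 to 0.34 in the first pair and from -0.54 to 0.37 in the second.

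Of 14 ABHD and lipid hydrolase genes beside ABHD2, 2 were higher and 0 lower with NFKB1 than with control siRNA (2 and 0 at an unadjusted p under 0.05, median 0.07), and 3 were higher and 11 lower with double than with ETV6 siRNA (median -0.48). ABHD15 was at 0.35 (adjusted p = 0.00674) and -0.43 (adjusted p = 0.000419), and MGLL, the monoacylglycerol lipase, at -0.18 (adjusted p = 0.155) and -1.01 (adjusted p = 3.95e-06). Of 7 Eph receptor and ephrin genes beside EPHB1, 0 were higher and 3 lower in the first pair (1 and 3 at an unadjusted p under 0.05, median -0.18) and 2 and 5 in the second (median -0.41). EFNB2, a ligand of EPHB1, was at -0.62 (SE 0.05, adjusted p = 6.33e-06) and -0.12 (adjusted p = 0.034). The second EFNB2 call was lost in 7 of 23 alternatives, with the mean of its probe sets among them (-0.05, adjusted p = 0.481), and its other probe set was at 0.03. EPHA3 was at -0.40 (adjusted p = 0.0218) and 1.58 (SE 0.12, adjusted p = 1.55e-06). The first EPHA3 value was -0.24 without control replicate 3 (adjusted p = 0.0425), and its call was lost without NFKB1 replicate 1 (adjusted p = 0.0534) or 2 (adjusted p = 0.072), with the mean of its probe sets (-0.28, adjusted p = 0.0573) and with only the groups compared (adjusted p = 0.0719). Of 9 other receptor-type phosphatases beside PTPRO, 1 was higher and 1 lower in the first pair (median -0.05) and 3 and 3 in the second (median 0.10); PTPRK was at -0.43 (adjusted p = 0.000201) and 0.10 (adjusted p = 0.128), and PTPRB at -0.08 (adjusted p = 0.551) and 1.21 (adjusted p = 1.98e-06). The only other CUT homeobox gene tested, SATB1, was not called in either pair (-0.12 and 0.05, adjusted p = 0.283 and 0.615).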

How the data were processed

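The deposited values are log2 levels of 19520 Affymetrix probe sets on 12 arrays, made by the authors; the background correction, summarization and normalization are not given in the sources used here. Symbols came from the platform's probe table: 17313 probe sets had 1 gene symbol, 857 had several, 1293 had none and 57 were controls. Each gene took its probe set with the highest mean, which left 10346 genes; those with a mean of at least the 25th percentile (log2 7.54) were tested, 7760 with NFKB1, which lies below it and was kept as a target. All 9 genes passed, PTPRO and EPHB1 only through the groups in which the choice of genes made them higher.

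Group means over the 12 arrays were fitted by limma's lmFit and eBayes (limma 3.58.1, R 4.3.3), with 8 residual degrees of freedom and 3.41 from the prior. Tests were two-sided with Benjamini-Hochberg adjustment over all genes tested and a threshold of 0.05, and the code was tested on simulated data. With 3 arrays a side the smallest exact permutation p is 0.1, so that test was not used. The 9 genes and the gene lists were chosen with earlier results of these data known. Named were the 9, both targets, per list the gene with the smallest adjusted p in each comparison, the genes nearest the 1.5-fold threshold and the most correlated genes; the fixed rule allowed up to 3 per list and comparison, and 1 is given. The main fit did not pair samples by replicate number, and nothing in the labels says what a number marks. Deviations of same-numbered arrays correlated at -0.52 to 0.48 over 18 pairs, 5 of them over 0.1, which does not settle whether samples were paired.

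Alternatives were the same median for every array, quantile normalization, no filter or one at the 50th percentile, averaged probe sets, separate probe sets, array weights, a trended and robust eBayes, a fit of the compared groups alone, the replicate number as a block, and fits without single arrays. Figures and promoter searches used Python 3.11.15, pandas 2.3.3 and matplotlib 3.10.9.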

Additional observations from a re-analysis of the deposited data

Results flagged for a closer look

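For 14 of the 15 genes named from the lists of relatives, the limma interaction was called (adjusted p between 2.55e-06 and 0.000259, Benjamini-Hochberg over 7760 genes). The interaction is the NFKB1 siRNA effect in cells with ETV6 siRNA minus that without it (double minus ETV6 minus NFKB1 plus control siRNA). The naming used the same pairs of groups, so these p-values are biased by it and the count is no separate result. The same test called 86.3% of all 7760 genes (6698), and SATB1 was the named gene not called (log2 difference 0.16, adjusted p = 0.215). The 9 genes are among the 7760 of the adjustment, but no p-value is given for them because the same differences chose them.

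The effect was more positive with ETV6 siRNA for EPHA3 (log2 difference 1.98), PTPRB (1.28), CALD1 (1.21), ARF6 (1.08), SYNC (0.99), PTPRK (0.53) and EFNB2 (0.50). It was more negative with ETV6 siRNA for CNN2 (-0.92), EHD2 (-0.89), NES (-0.85), MGLL (-0.83), ABHD15 (-0.78), MRPS34 (-0.67) and MRPS14 (-0.53). The probe sets of ARF6 and MRPS14 disagree in sign in both pairs. Those of NES and PTPRB do so in NFKB1 minus control siRNA, and those of EFNB2 in double minus ETV6 siRNA. These genes were named for a small adjusted p in 1 of the 2 pairs of groups, which the difference contains. The double siRNA arrays, which enter every one of these values, had lower poly-A spike-in levels than the other arrays; its part was not tested.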

How the results depend on the processing

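All 9 genes stayed past 1.5-fold in both pairs when any single array was left out, with every array at the same median, after quantile normalization and without control replicate 3 and ETV6 replicate 2 together; 7 did with the mean of the probe sets, and 6 of the 6 left by a filter at the 50th percentile. Genes called in the ETV6 siRNA average effect numbered 6181, 4101 with the 50th percentile filter and 13010 with every probe set on its own. For double minus ETV6 siRNA the counts were 6686, 4426 and 14311, and for NFKB1 minus control siRNA 3148, 6035 with every probe set and 1855 with only the groups compared; stricter filters test fewer features and probe sets add them. Of the 9 genes, 4 were called in the ETV6 siRNA average effect, beside 79.7% of all genes. With the 50th percentile filter, which leaves out SNN, EPHB1 and PTPRO, 2 of 6 were called, beside 4101 of 5175 genes. With array weights 8 of the 9 were called, beside 86.9% of all genes. When a single array was left out 4 to 6 were called, beside 5920 to 6385 of 7760 genes. With the mean of the probe sets, 3 values reversed: ARF6 in double minus ETV6 siRNA (-0.22) and MRPS14 in both pairs (-0.15 in NFKB1 minus control siRNA, 0.28 in double minus ETV6 siRNA); their probe sets differ in sign. Single arrays moved calls of relatives: EFNB2 in double minus ETV6 siRNA was lost without ETV6 replicate 2 (-0.09) or 3 (-0.13) and double replicate 1 (-0.11) or 3 (-0.12), and EPHA3 in NFKB1 minus control siRNA without NFKB1 replicate 1 (-0.40) or 2 (-0.37); EPHA3 was at -0.24 without control replicate 3. In NFKB1 minus control siRNA, CNN2 (-0.22), MGLL (-0.29) and NES (-0.25) were called without control replicate 3, and CNN2 (-0.22) without NFKB1 replicate 1. The median of all genes in double minus ETV6 siRNA was -0.15, and -0.27 with every array at the same median.

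With a replicate block the counts were 6173, 6687 and 3195 of 7760 genes. In the ETV6 siRNA average effect 5 of the 9 genes were called (MICALL1 was added, limma adjusted p = 0.0322), beside the 6173 among all genes. Of 12 arrays, 3 were most like an array of their own number. The 3 arrays per group limit the precision of every value.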

Other observations

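In the RefSeq table of assembly GRCh38.p14, 2 of the 7 genes with an entry have a transcription start within 1000 bases of one on the other strand. NEFL and SNN have no entry and could not be searched. Both neighbours were measured, and they were looked up after the 9 genes' values were seen. FAS, the death receptor gene, starts 94 bases from a start of ACTA2. ACTA2 has promoters at chr10:88991288-88991587 and chr10:88952724-88953023, of which only the latter is printed above. Which of them lies beside FAS is not given here. FAS is thus not to be read as the neighbour of the printed promoter. FAS averaged 6.99 with NFKB1 siRNA and 7.34 with control siRNA (log2 difference -0.35, SE 0.18). It averaged 8.599 with double siRNA and 7.39 with ETV6 siRNA (1.21, SE 0.18). Its means in the other 3 groups lie below the filter on low levels (log2 7.54), which it passed only through the double siRNA arrays, so no test is given. FAS was thus higher where ACTA2 was lower in the second pair, and its 4 probe sets ran from 1.21 to 1.48 there.

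SARS2, the mitochondrial seryl-tRNA synthetase gene, starts 181 bases from a start of MRPS12. It averaged 7.92 with NFKB1 siRNA and 7.74 with control siRNA (0.18, SE 0.14, limma adjusted p = 0.324), and 7.05 with double siRNA and 7.73 with ETV6 siRNA (-0.68, SE 0.14, adjusted p = 0.000711). MRPS12 was at -1.29 and -1.83 in the same pairs.

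ND4, a mitochondrially encoded subunit of respiratory complex I and the other gene higher in both pairs, was at 0.59 and 0.87 on its brighter probe set and at 0.73 and 1.02 on the other.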
